A study of Mus musculus with 3 samples.

Results

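A set of 10 genes of T cell inhibition, costimulation and regulation was followed through 12670 cells of 3 mouse melanomas: the inhibitory receptors Pdcd1, Ctla4, Lag3, Tigit and Havcr2, the costimulatory receptors Icos and Cd28, the transcription factor Foxp3, and the ligands Cd274 and Pdcd1lg2. They are 10 of the 36530 features in the count tables, were found there by their Entrez identifiers, and were chosen by name, not by a measured value. Earlier results of these data were known when the 10 genes were chosen. The receptors and Foxp3 are described in the cells the authors named NK_T and NK_T_Cytolytic, and the ligands in every named cluster. The question was where these genes were detected, and how far their levels in an untreated tumor differed from those in a tumor that had regressed on vemurafenib and in a tumor that had progressed on it.

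The mice, of C57BL/6J background, carried a Cre-activated Braf V600E allele with Tyr:CreER, and some of the colony also carried a Rosa26 tdTomato reporter. Cre is driven by the tyrosinase promoter, which is active in melanocytes, so the immune and stromal cells were not the target of the alleles. The series text says that the cells were sorted but names no gate, so a sort could set the shares of cell types. Tumors were induced on the skin with 4-hydroxytamoxifen, and vemurafenib, an inhibitor of mutant BRAF, was given by gavage. All 3 groups share these alleles, the labels give neither the age of the animals nor the days on drug, and each group was 1 tumor and 1 library, so no test between tumors was possible. The treatment, the animal and the library cannot be told apart in any comparison below.

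PD-1, the product of Pdcd1, and CTLA-4 are brakes on T cells: PD-1 binds PD-L1 (Cd274) and PD-L2 (Pdcd1lg2) on other cells, and CTLA-4 takes CD80 and CD86 away from the costimulatory receptor CD28. LAG-3, TIGIT and TIM-3 (Havcr2) are further inhibitory receptors, ICOS is a relative of CD28 that appears on activated T cells, and FOXP3 defines regulatory T cells, which carry much CTLA-4. In melanoma some of these molecules, among them PD-1, PD-L1 and CTLA-4, are targets of checkpoint antibodies.

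The untreated tumor gave 4095 cells, the regressed one 3726 and the progressed one 4849, with a median of 4496, 2658 and 4566 unique molecular identifiers (UMIs, counts of captured transcripts) per cell. The NK_T cluster held 25, 180 and 17 of them, the NK_T_Cytolytic cluster 15, 58 and 24, and the 2 together, called NK/T cells below, 40, 238 and 41. Levels are given as UMIs per 1000000 UMIs of the group of cells (counts per 1000000, CPM), with exact 95% Poisson intervals, and shares of cells with exact binomial intervals. Where a group held 0 UMIs, the level said to be allowed is that of 3 UMIs over the group. That level is lower than the upper end of the exact 95% interval. All intervals cover counting error only, and are too narrow where a few cells hold most UMIs of a gene. The names of the clusters were checked against markers: a Cd3d, Cd3e or Cd3g UMI was found in 33, 210 and 39 of the NK/T cells, a Cd4 UMI in 4, 44 and 7, and a Cd8a UMI in 1, 7 and 5. The 4 B cell markers together were at 6.27, 19.1 and 16.8 CPM. The NK/T cells were no pure sample of lymphocyte RNA, since 31, 228 and 34 of them held at least 3 UMIs of macrophage or fibroblast markers, and the part of this in the results was not tested beyond the values given below. Cd3 UMIs also lay outside lymphocytes in the regressed library, in 17.6% of Stroma10 cells without Lag3, against 1.18% of such Stroma4 cells in the untreated and 1.16% in the progressed tumor. Xist, which female cells express, had 1794 CPM in untreated NK/T cells, 0 in regressed and 2002 in progressed ones. These are levels of a male animal for the regressed tumor and of females for the others. Sex therefore cannot be told apart from treatment in any comparison with the regressed tumor.

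Cd28, Ctla4 and Icos lie beside each other on chromosome 1 of GRCm38.p6, all on the plus strand: Cd28 at 60746388 to 60773359, Ctla4 at 60909025 to 60915832 and Icos at 60960773 to 61000322, with 135665 and 44940 bases between neighbours. Cd274 (29362107 to 29388095) and Pdcd1lg2 (29410919 to 29472927) are neighbours on chromosome 19, 22823 bases apart. The promoters of Ctla4 and Foxp3 are shown because these genes were detected in the same cells, as described below. Each window runs from 250 bases before to 50 bases after an annotated transcript start, 5′ to 3′ on the strand of the gene, and was taken from RefSeq on GRCm38.p6. Capitals mark matches to the letters TATAAA and, on either strand, to the NFAT core TGGAAA, which both genes hold on the minus strand, and to the STAT element TTCNNNGAA. The windows are chr1:60908775-60909074 for Ctla4, chrX:7579426-7579725 for the first and chrX:7580233-7580532 for the second start of Foxp3, all on the plus strand.
Ctla4: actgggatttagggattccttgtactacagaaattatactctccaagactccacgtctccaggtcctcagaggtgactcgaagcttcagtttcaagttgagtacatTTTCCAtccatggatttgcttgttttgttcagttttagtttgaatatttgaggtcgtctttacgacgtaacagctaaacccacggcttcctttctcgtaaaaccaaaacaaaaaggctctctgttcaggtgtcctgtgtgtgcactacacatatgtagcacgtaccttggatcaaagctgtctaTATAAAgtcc
Foxp3, first start: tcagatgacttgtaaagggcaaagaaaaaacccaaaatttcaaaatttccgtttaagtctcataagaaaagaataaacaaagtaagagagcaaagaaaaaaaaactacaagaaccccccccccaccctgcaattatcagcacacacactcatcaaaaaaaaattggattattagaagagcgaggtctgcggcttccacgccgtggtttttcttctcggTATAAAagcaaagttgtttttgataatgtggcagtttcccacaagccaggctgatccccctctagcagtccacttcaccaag
Foxp3, second start: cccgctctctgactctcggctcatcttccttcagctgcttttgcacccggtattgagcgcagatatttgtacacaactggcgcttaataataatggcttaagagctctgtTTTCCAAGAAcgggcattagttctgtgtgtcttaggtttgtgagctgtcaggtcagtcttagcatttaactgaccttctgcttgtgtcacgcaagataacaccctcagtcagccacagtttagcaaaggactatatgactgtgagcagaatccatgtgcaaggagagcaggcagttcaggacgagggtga
Ctla4 held the NFAT core at -144 and TATAAA at 40, counted from the start. The first Foxp3 window held TATAAA at -32, and the second held the NFAT core at -140, overlapping a STAT element at -139. Of 32851 promoter windows of this length, 21.4% held the NFAT core, 8.30% the STAT element and 13.6% TATAAA on either strand, so the matches describe the letters of these windows and nothing about binding. The windows of Cd274, Pdcd1lg2, Pdcd1, Tigit and Havcr2 held none of the 6 motifs searched, which also included the forkhead core TGTTTAC (in 3.65% of windows), an interferon-stimulated response element core (3.44%) and an NF-kappaB element (1.63%). Promoters of Lag3, Icos and Cd28 are not shown.

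Among the inhibitory receptors, Ctla4 was seen in NK_T cells and in no NK_T_Cytolytic cell. NK_T cells of the untreated tumor held 19 Ctla4 UMIs in 5 of 25 cells (157 CPM, 94.5 to 245), those of the regressed tumor 144 UMIs in 47 of 180 cells (267 CPM, 226 to 315), and those of the progressed tumor 34 UMIs in 7 of 17 cells (349 CPM, 242 to 488). The level was lowest in the untreated tumor, although all 3 intervals overlap. The 15, 58 and 24 NK_T_Cytolytic cells held 0 UMIs, which allows up to 78.1, 15.4 and 37.1 CPM. Few cells carried these counts: 3 cells held 84.2% of the Ctla4 UMIs in untreated and 70.6% in progressed NK/T cells, against 29.2% in regressed ones. As background, a Ctla4 UMI was found in 0.0381%, 1.09% and 0.205% of stromal cells, which should lack the gene, at medians of 4654, 3152 and 4388 UMIs per cell against 4087, 2652 and 3900 in NK_T cells.

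Lag3 had the opposite distribution between the clusters. In untreated NK_T_Cytolytic cells it reached 260 CPM (10 UMIs in 4 of 15 cells, 125 to 479), in regressed ones 200 (39 UMIs in 20 of 58 cells, 142 to 274) and in progressed ones 408 (33 UMIs in 13 of 24 cells, 281 to 573). In NK_T cells the level was 57.9, 46.4 and 0 CPM, the last with 0 UMIs in 17 cells, which allows up to 30.8 CPM. Every one of the 17 untreated and 33 progressed Lag3 UMIs, and 63 of the 64 regressed ones, lay in a cell with a Cd3 UMI. This says little about Lag3, since 33 of 40 untreated, 210 of 238 regressed and 39 of 41 progressed NK/T cells held Cd3. All regressed and progressed NK_T_Cytolytic cells held Cd3, with or without Lag3. Lag3 also lay outside lymphocytes, as described below.

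Pdcd1 was sparse. NK_T cells held 2, 20 and 4 Pdcd1 UMIs in the untreated, regressed and progressed tumor, or 16.5 (2.0 to 59.7), 37.2 (22.7 to 57.4) and 41.1 (11.2 to 105) CPM, in 4%, 9.44% and 23.5% of cells. The intervals overlap throughout, and NK_T_Cytolytic cells held none in any tumor. Tigit was sparser still, with 0, 5 and 2 UMIs in NK_T and 1, 1 and 0 in NK_T_Cytolytic cells, too few to order the tumors.

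Havcr2 is better known as a receptor of exhausted T cells, but myeloid cells also carry it. NK_T cells held 4 UMIs (33.1 CPM), 17 UMIs (31.6) and 0 UMIs, and NK_T_Cytolytic cells 2 (52.1), 6 (30.8) and 0. The absence in the 41 progressed NK/T cells allows up to 16.8 CPM, below the 37.6 of untreated and the 31.4 of regressed NK/T cells, although the untreated interval (13.8 to 81.9) includes it. In Monocytes1 the gene was at 52.5, 88.6 and 20.1 CPM, in 18.7%, 24.4% and 9.43% of cells, and in macrophages at 20.7, 37.1 and 22.1. Immune cells other than NK/T cells held 101, 104 and 64 Havcr2 UMIs, against 6, 23 and 0 in NK/T cells, and stroma 11, 9 and 8.

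Among the costimulatory receptors, Icos was found in most NK_T cells of the untreated and progressed tumors. Its level was 405 CPM (300 to 535) in untreated, 407 (355 to 465) in regressed and 514 (381 to 677) in progressed NK_T cells, in 60%, 46.1% and 76.5% of cells. The 3 intervals overlap, and the NK_T_Cytolytic cells held 0, 1 and 3 UMIs. Thinned to 1000 UMIs per cell, the shares of NK_T cells with Icos were 36%, 25.6% and 47.1%, in the same order. Icos was also found in 4 of 7 untreated, 8 of 28 regressed and 2 of 2 progressed NK/T cells without a Cd3 UMI. Gata3 or Il1rl1, markers of type 2 innate lymphoid cells, was found without Cd3 in 7, 11 and 2 NK/T cells. How much of Icos lay in cells other than T cells was not tested.

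Cd28, the receptor that signals alongside the T cell receptor, was at 74.4 (34.0 to 141), 175 (141 to 214) and 113 (56.4 to 202) CPM in NK_T cells. It was highest in the regressed tumor by level but not by share of cells, which was 24%, 32.2% and 41.2%. NK_T_Cytolytic cells held 0, 6 and 2 UMIs. In stroma, Icos and Cd28 had at most 2.65 CPM in any tumor.

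**Figure D1:**
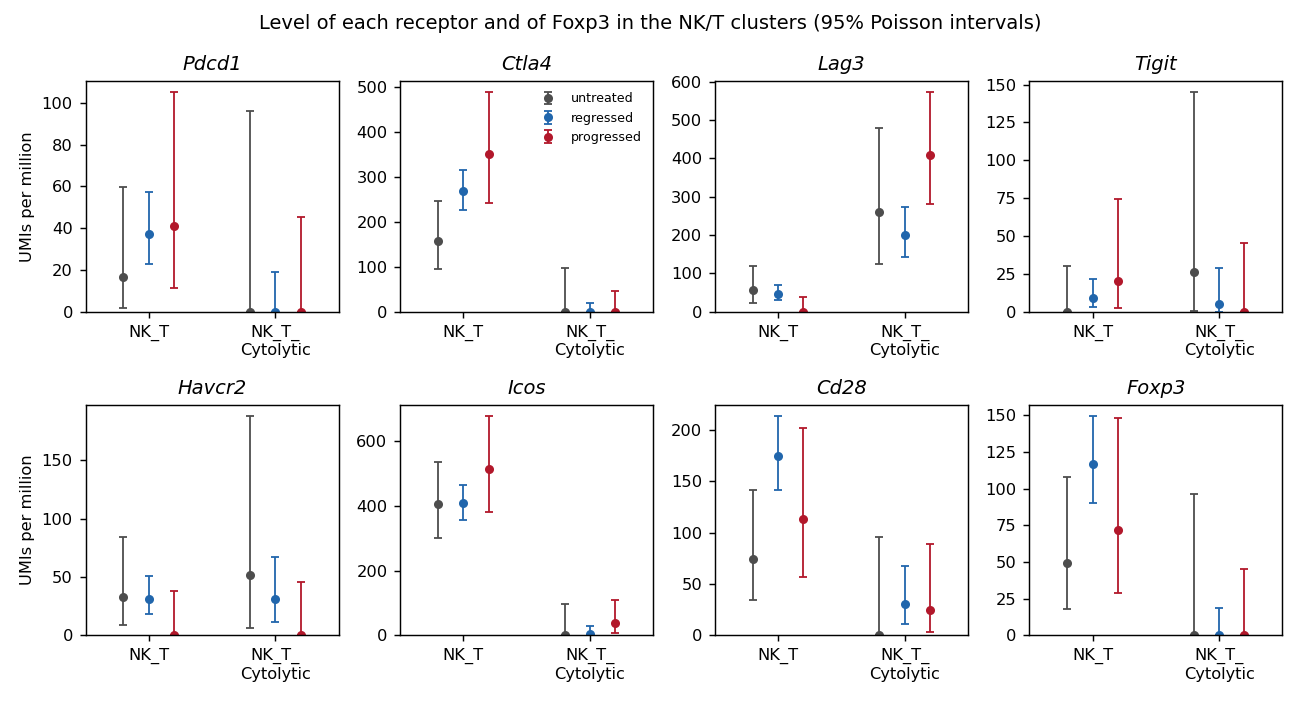
Levels of the 7 receptors and Foxp3 in CPM (y axes, each panel with its own scale) in the NK_T and NK_T_Cytolytic clusters (x axes) of 1 untreated, 1 regressed and 1 progressed tumor; points are levels and bars 95% Poisson intervals. Ctla4, Icos and Foxp3 lie in NK_T, Lag3 lies mainly in NK_T_Cytolytic, and the wide bars stand for clusters of 15 to 25 cells.

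The split between the clusters was set in figures within each tumor. In the regressed tumor, Icos was 79.2-fold higher in NK_T than in NK_T_Cytolytic cells (219 against 1 UMIs, log2 6.31, 3.81 to 11.6), Ctla4 at least 17.4-fold and Foxp3 at least 7.6-fold higher, counted against a floor of 3 UMIs over the cluster, and Cd28 was 5.67-fold higher (log2 2.50, 1.33 to 3.99). Lag3 was lower in NK_T, with a log2 ratio of -2.17 in the untreated (-3.80 to -0.63) and -2.11 in the regressed tumor (-2.89 to -1.35), and at least 13.2-fold lower in the progressed one. Receptors and Foxp3 at least 2-fold apart between the clusters numbered 3 of 4, 6 of 8 and 4 of 5 with a ratio in the untreated, regressed and progressed tumor, while 41.7%, 28.4% and 41.5% of all genes with a ratio were so far apart. The clusters were made from all genes, these included, so the values describe what the clusters hold and support nothing further.

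Foxp3 UMIs were found in 3 untreated, 35 regressed and 3 progressed NK/T cells, all of them in NK_T and all with a Cd3 UMI. This made 49.6 CPM (18.2 to 108) in untreated, 117 (89.9 to 150) in regressed and 71.9 (28.9 to 148) in progressed NK_T cells. Of all NK/T cells, 7.5% (1.57 to 20.4), 14.7% (10.5 to 19.9) and 7.32% (1.54 to 19.9) held Foxp3, with the highest share in the regressed tumor and overlapping intervals. The regressed tumor also had Foxp3 UMIs outside NK/T cells, 21 in stroma (3.27 CPM, in 1.09% of cells) against 2 and 1 in the stroma of the other tumors (0.142 and 0.0569 CPM). Foxp3 overlaps Ccdc22 on the opposite strand by 1435 bases, and reads were counted in sense orientation.

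Cells with Foxp3 carried more Ctla4. In the regressed tumor 23 of 35 Foxp3-positive cells held a Ctla4 UMI (65.7%, 47.8 to 80.9), against 24 of 203 cells without Foxp3 (11.8%, 7.72 to 17.1), and the levels were 696 and 83.6 CPM. The 203 cells include all 58 NK_T_Cytolytic cells, which held neither Foxp3 nor Ctla4 and so lower the share and level without Foxp3. The 2 sets of cells were of like depth, with medians of 2779 and 2687 UMIs, and the positive cells held 65.3% of all Ctla4 UMIs of NK/T cells. In each of the other tumors 3 of 3 Foxp3-positive cells held Ctla4, against 2 of 37 and 4 of 38 cells without Foxp3. These cells are not replicates of a tumor, so the comparison is a description of each library.

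Among the other receptors, Icos was found in 24 of 35 Foxp3-positive and 60 of 203 negative cells of the regressed tumor (log2 ratio of levels 2.02), and Cd28 in 18 and 45 (1.19). Tigit, rare everywhere, had 5 of its 6 UMIs in Foxp3-positive cells, a log2 ratio of 4.47 with an interval of 1.31 to 10.0. Lag3 was found in 5 of 35 and 27 of 203 cells (14.3% and 13.3%), and Pdcd1 in 3 and 14 (8.57% and 6.90%). These shares set Foxp3-positive NK_T cells against cells of both clusters. Lag3 was found in 20 of the 58 NK_T_Cytolytic cells, and in 12 of 180 NK_T cells, 5 of these with Foxp3. Pdcd1 was found in no NK_T_Cytolytic cell. Shares without Foxp3 within NK_T alone are not given, so the near-equal Lag3 shares do not show that Lag3 is alike with and without Foxp3. Ctla4, Tigit, Havcr2, Icos and Cd28, 5 of 7 receptors, were at least 2-fold higher with Foxp3, where 24.8% of all genes were 2-fold apart either way and 12.2% higher. The interval of Havcr2 included 0 on the log2 scale, and those of the other 4 left it out.

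Of 15 other genes known from regulatory T cells, 8 were at least 2-fold higher in Foxp3-positive cells of the regressed tumor, 0 lower, and 14 had a ratio, with a median log2 ratio of 1.03 against 0.00036 over all genes. The receptor gene Tnfrsf4 (OX40) was found in 32 of 35 against 43 of 203 cells, Tnfrsf18 (GITR) in 31 against 93, the transcription factor Ikzf2 (Helios) in 31 against 38 and Il2ra, the IL-2 receptor alpha chain, in 19 against 26. Capg, which encodes an actin capping protein, was found in 32 against 161, and Il2rb in 21 against 101. Lineage markers differed as well: Cd4 was found in 12 of 35 and 32 of 203 cells, Cd8a in 0 and 7, the gamma-delta T cell gene Cd163l1 in 1 and 35, and the NK cell gene Ncr1 in 0 and 13. Ranked by their ratio among the 1776 genes with at least 15 UMIs in these Foxp3-positive cells, the genes most like Foxp3 were Klrg1 (21.8-fold), Cdca3 (15.5-fold), Nrn1 (14.5-fold), Izumo1r (11.8-fold) and Neb (11.5-fold), with Ctla4 at the sixth place (8.33-fold). The minimum was set in the Foxp3-positive cells alone, which favors genes that are high there. The ranking therefore describes these cells and supports nothing further.

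**Figure D2:**
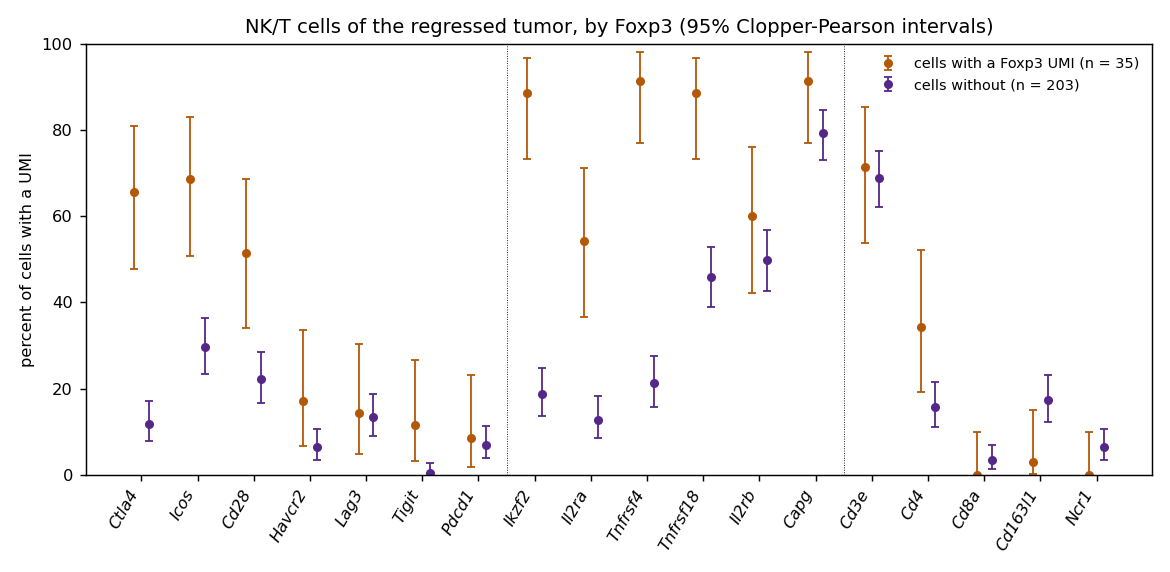
Percent of regressed NK/T cells with a UMI of each gene (y axis, percent) for cells with a Foxp3 UMI (n = 35) and without (n = 203); points are shares, bars are 95% Clopper-Pearson intervals, and dotted lines separate receptors, regulatory T cell genes and lineage markers. Ctla4 (65.7% against 11.8%), Ikzf2 (88.6% against 18.7%) and Tnfrsf4 (91.4% against 21.2%) stand far apart, while Lag3 and Pdcd1 overlap. The cells with Foxp3 are all NK_T cells, and those without include all 58 NK_T_Cytolytic cells.

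Between tumors, over all NK/T cells, the level of Cd28, Foxp3 and Pdcd1 was at least 2-fold higher in the regressed tumor than in the untreated one, for Foxp3 and Pdcd1 with intervals that include 0 on the log2 scale. The level of Cd28 was 56.5 CPM in the untreated and 136 in the regressed tumor (log2 ratio 1.27, 0.29 to 2.44), that of Foxp3 37.6 and 85.9 (1.19, -0.01 to 2.69), and that of Pdcd1 12.5 and 27.3 (1.12, -0.92 to 4.26), the last on 2 and 20 UMIs. Ctla4 was higher by less (119 and 196 CPM, log2 0.72, 0.03 to 1.49), and Icos was at 307 and 300 (-0.03, -0.49 to 0.44). Thus 3 of 8 genes were at least 2-fold apart, all higher in the regressed tumor, against a background of 27.2% of all genes with a ratio, which is near the share among the 8, and the intervals of Ctla4 and Cd28 (2 of 8) left out 0, as did those of 13.4% of all genes. The median log2 ratio was 0.55 over the 8 and 0.16 over all genes.

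The Ctla4 ratio changed sign under other settings: it was -0.0814 after each cell was thinned to 1000 UMIs, and -1.21 among the 9 untreated and 10 regressed cells with fewer than 3 macrophage or fibroblast UMIs. The mix of clusters also differed, with NK_T making up 62.5% (45.8 to 77.3), 75.6% (69.7 to 80.9) and 41.5% (26.3 to 57.9) of NK/T cells in the 3 tumors. Within NK_T alone the log2 ratios of regressed to untreated were 0.77 for Ctla4 (0.07 to 1.54), 1.23 for Cd28 (0.25 to 2.40) and 1.24 for Foxp3 (0.04 to 2.74).

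In the progressed against the regressed tumor, Lag3 was higher and Foxp3 lower. Lag3 was at 87.3 CPM in regressed and 185 in progressed NK/T cells (log2 1.08, 0.43 to 1.71), and Foxp3 at 85.9 and 39.3 (-1.13, -2.50 to -0.004). Cd28 was at 136 and 72.9 CPM (-0.90, -1.86 to -0.06), and Havcr2 at 31.4 and 0, a log2 ratio of at most -0.90. Icos (-0.01, -0.47 to 0.42) and Ctla4 (-0.04) were close to level. These made 2 of 8 genes at least 2-fold apart against 26.2% of all genes, and 4 of 8 intervals without 0 against 13.0%.

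The make-up of the NK/T cells differed between these tumors. The progressed NK/T cells held a larger share of NK_T_Cytolytic cells, where Lag3 lies, but within that cluster Lag3 was also higher (1.03, 0.31 to 1.73), and within NK_T it was lower, at 25 UMIs against 0. Within NK_T, the Foxp3 ratio was -0.70 (-2.08 to 0.42) and the Cd28 ratio -0.63, so neither passed 2-fold there. Markers of gamma-delta T cells also moved with the tumors: the 3 of 7 that could be matched summed to 62.7, 288 and 11.2 CPM in untreated, regressed and progressed NK/T cells, with Cd163l1 found in 1, 36 and 0 cells and Il17a at 1, 41 and 0 UMIs. Their part in the ratios between tumors was not tested.

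In the progressed against the untreated tumor, 1 of the 7 genes with a ratio was at least 2-fold apart, Havcr2, at 0 against 6 UMIs (a log2 ratio of at most -1.16), while 27.7% of all genes were. The Havcr2 interval was also the only 1 of 7 to leave out 0, against 8.87% of all genes. Lag3 was at 107 and 185 CPM (0.80, -0.09 to 1.73), Ctla4 at 119 and 191 (0.68), Cd28 at 56.5 and 72.9 (0.37), Foxp3 at 37.6 and 39.3 (0.06) and Icos at 307 and 297 (-0.05). All 3 ratios of a gene share tumors, so they are not independent.

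**Figure D3:**
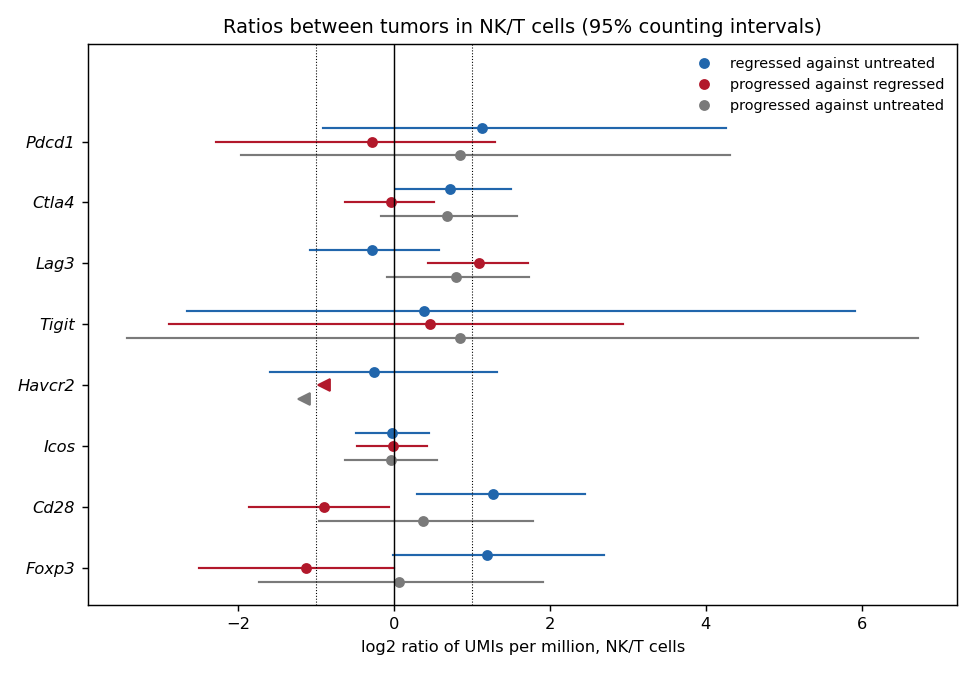
Log2 ratios of CPM between tumors over all NK/T cells (x axis) for the 7 receptors and Foxp3 (y axis), with 95% counting intervals as bars; triangles are bounds where 1 tumor had 0 UMIs, and dotted lines mark 2-fold. The Icos ratios lie at 0, Cd28 and Foxp3 lie to the right for regressed against untreated and to the left for progressed against regressed, and the Tigit and Pdcd1 bars are several units wide.

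Most NK/T cells held at least 1 of the 7 receptors: 25 of 40 did in the untreated tumor, 150 of 238 in the regressed and 31 of 41 in the progressed one. Cells with 2 or more made up 27.5%, 29.8% and 29.3% of NK/T cells, and 40%, 36.7% and 64.7% of NK_T cells. The share in NK_T was highest in the progressed tumor, where it rests on 17 cells. The NK_T cells differed in depth, at medians of 4087, 2652 and 3900 UMIs per cell. In the regressed tumor, NK_T cells with 0 receptors had a median of 1969 UMIs, and those with 2 or more 3251. The part of depth in these shares was not tested.

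Lag3 was found in stroma as well as in lymphocytes, unlike the other receptors. Stromal cells, which the authors named by Fap and collagens, held 1000, 551 and 796 Lag3 UMIs in the untreated, regressed and progressed tumor, in 23.1%, 21.1% and 15.4% of cells, or 71.0 (66.7 to 75.6), 85.8 (78.8 to 93.2) and 45.3 (42.2 to 48.5) CPM. Ctla4 had at most 21 UMIs in the stroma of any tumor and Icos at most 17. Thinned to 1000 UMIs, 7.23%, 8.14% and 4.38% of stromal cells held Lag3.

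The Lag3 UMIs were uneven among stromal clusters. Stroma4 of the untreated tumor had 520 UMIs in 260 of 599 cells (202 CPM, 185 to 220), Stroma4 of the progressed tumor 353 in 220 of 826 (96.2, 86.5 to 107), and Stroma10 of the regressed tumor 516 in 370 of 1537 (106, 97.3 to 116). Of the 260 Lag3-positive Stroma4 cells of the untreated tumor, 251 held Col1a1, the fibrillar collagen chain, and 4 held Cd3, and 118 held 2 or more Lag3 UMIs, up to 14 in 1 cell. They were deeper than the Lag3-negative cells, at medians of 4535 and 3670 UMIs. In Stroma10 of the regressed tumor, 89 of the 370 Lag3-positive cells held Cd3 (24.05%), against 17.57% of Lag3-negative ones. The part of lymphocyte RNA in the Lag3 UMIs of that cluster was not tested. Monocytes2 of the regressed tumor also held 39 UMIs (89.6 CPM), against 35.1 and 17.8 CPM in the untreated and progressed tumors.

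Lag3 has a close neighbour, Ptms, which encodes parathymosin. Lag3 lies at chr6:124904359-124912434 on the minus strand, and Ptms ends 1240 bases from its start, on the same strand and transcribed towards it. Ptms had 24342 UMIs in 8844 cells, so its level was set beside that of Lag3. In Stroma4 of the untreated tumor Ptms was at 444 CPM in Lag3-positive and 439 in Lag3-negative cells, in Stroma4 of the progressed tumor at 425 and 489, and in Stroma10 of the regressed tumor at 847 and 781. In NK_T_Cytolytic cells Ptms was at 1045 and 843.6 CPM in the regressed tumor and at 456.6 and 356 in the progressed one. Over 53 groups of at least 20 cells, Pearson's r of the log2 levels was 0.37, a description over groups that share libraries and depth. The genes most like Lag3 over these groups, among 14434 ranked, were Septin6 (r = 0.69), Klf12 (0.68), P2ry14 (0.67) and Adamtsl3 (0.67). Whether the Lag3 UMIs of stroma or of NK_T_Cytolytic cells are transcripts of Lag3 itself was not tested.

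**Figure D4:**
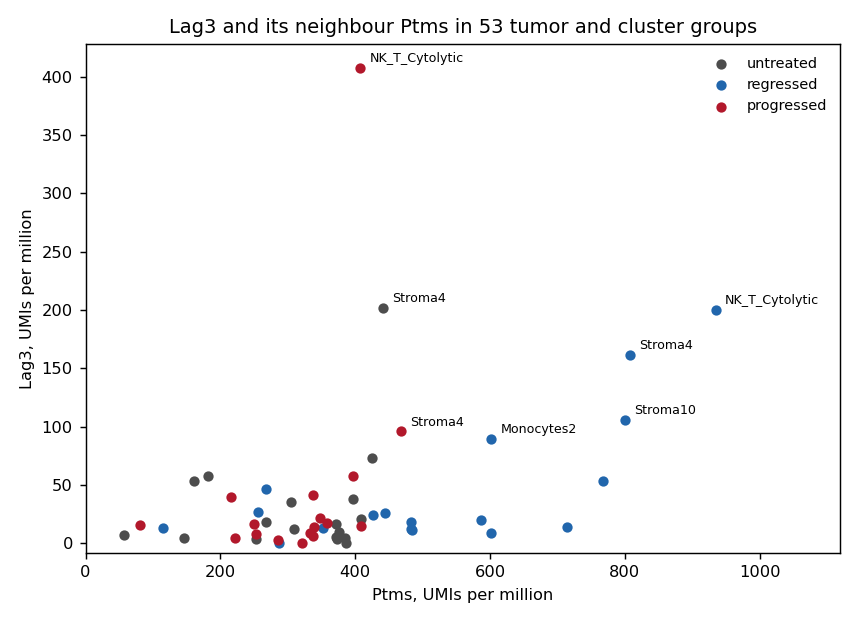
Lag3 (y axis) against its neighbour Ptms (x axis), both in CPM, in 53 groups of cells of 1 cluster and 1 tumor with at least 20 cells; each point is a group, colored by tumor, and groups with the highest Lag3 are named. Stroma4 of the untreated tumor, at 202 Lag3 and 441 Ptms CPM, is the highest stromal group, and NK_T_Cytolytic of the progressed tumor, at 408 for both genes, lies above it.

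Between tumors, stromal Lag3 was slightly higher in the regressed tumor (log2 0.27 against the untreated one, 0.12 to 0.42). It was lower in the progressed tumor than in the regressed one (-0.92, -1.08 to -0.76) and the untreated one (-0.65, -0.79 to -0.51). The medians over all genes in stroma for the same pairs were 0.19, -0.26 and -0.07. The tumors were built from different stromal clusters, and with the shared clusters at equal weight the first ratio became -0.32, resting on 20 Stroma4 cells of the regressed tumor.

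Of the ligands, Cd274, which encodes PD-L1, had 317 UMIs in 269 cells over all 3 tumors. Neutrophils of the untreated tumor held 59 of them in 46 of 391 cells (38.8 CPM, 29.5 to 50), and those of the regressed tumor 10 in 8 of 216 cells (33.6, 16.1 to 61.8). The progressed tumor had only 4 neutrophils and 0 UMIs in them. The share of neutrophils with Cd274, 11.8% and 3.70%, differed along with their depth, at medians of 3257 and 1252 UMIs per cell, while the intervals of the levels overlap.

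Other myeloid cells and vessels also held Cd274. Monocytes1 were at 17.8 CPM (untreated), 23.1 (regressed) and 20.1 (progressed), Monocytes2 at 23.4, 20.7 and 8.89, and macrophages at 9.09, 11.1 and 9.48. Blood vessel cells were at 8.99, 18.7 and 25.5 (7, 4 and 4 UMIs), and mast cells at 39.5 (21.0 to 67.6) in the regressed and 13.5 (3.67 to 34.4) in the progressed tumor. The 16 mast cells of the untreated tumor held 0 UMIs. Within each of these clusters the intervals overlap between tumors. Tumor cells held 0 UMIs in 48 cells, 3 in 410 and 5 in 160, or 0, 5.03 and 5.96 CPM, the first allowing up to 11.4 CPM, and stroma was at 2.56, 2.02 and 1.25. Cd274 overlaps Plgrkt on the opposite strand by 5186 bases.

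Over all immune cells, Cd274 was lower in the progressed tumor. The untreated tumor was at 22.7 CPM (18.5 to 27.5), the regressed at 22.5 (17.4 to 28.7) and the progressed at 11.0 (7.55 to 15.4). Regressed over untreated gave a log2 ratio of -0.01 (-0.48 to 0.45), while the progressed tumor stood at -1.04 (-1.69 to -0.41) relative to the regressed and at -1.05 (-1.66 to -0.47) relative to the untreated one. Leaving out the neutrophils (391, 216 and 4 cells) gave 0.56 for regressed over untreated and -0.39 for progressed over untreated. The ratio of progressed to regressed without neutrophils is not given here. How far the numbers of neutrophils account for any of these ratios was not tested. Across all genes in immune cells the median log2 ratios were 0.56, -0.33 and 0.25.

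Pdcd1lg2, which encodes PD-L2, had 126 UMIs in 98 cells. Untreated neutrophils held 49 UMIs in 37 of 391 cells (32.2 CPM, 23.8 to 42.6) and regressed ones 3 in 3 of 216 (10.1, 2.08 to 29.5), a log2 ratio of -1.68 (-4.00 to -0.04). NK_T cells held 7, 17 and 5 UMIs (57.9, 31.6 and 51.4 CPM) and NK_T_Cytolytic cells none. Macrophages, mast cells and tumor cells held 0 UMIs in every tumor.

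Over immune cells Pdcd1lg2 was at 14.9 (11.5 to 18.9), 8.66 (5.60 to 12.8) and 5.32 (3.04 to 8.63) CPM, highest in the untreated tumor. Regressed over untreated was -0.78 on the log2 scale (-1.51 to -0.10), progressed over regressed -0.70 (-1.71 to 0.26) and progressed over untreated -1.49 (-2.37 to -0.68). Without neutrophils the first turned to 0.49. Ligands at least 2-fold apart in immune cells numbered 0, 1 and 2 of 2, against 35.8%, 26.9% and 21.9% of all genes.

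Over the 53 groups, the levels most like Cd274 were those of Nrros (r = 0.79), Gmfg-ps, Csf2rb and Lilr4b (0.78 each), and, among genes with at least 100 UMIs in these groups, those most like Pdcd1lg2 were Tnfsf14 (0.78), Cd226 (0.75) and Krt83 (0.74). The ligands gave r = 0.58 with each other. The groups share 3 libraries, and these are descriptions.

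**Figure D5:**
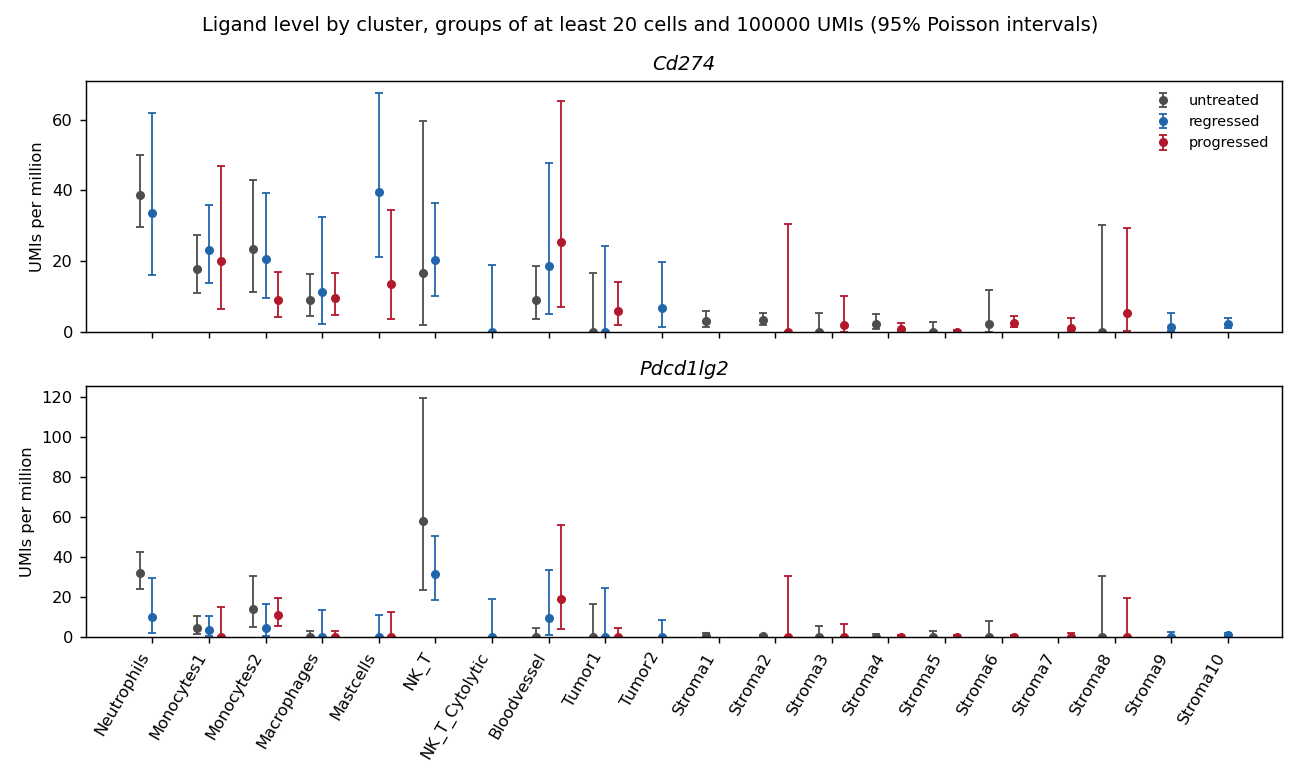
Levels of Cd274 (top) and Pdcd1lg2 (bottom) in CPM (y axes) by cluster (x axis) and tumor, for groups of at least 20 cells and 100000 UMIs; points are levels and bars 95% Poisson intervals. Untreated neutrophils are at 38.8 and 32.2, stromal clusters lie near 0, and macrophages hold Cd274 but no Pdcd1lg2.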

How the data were processed

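Single cells of 3 tumors, dissociated with collagenase and trypsin, were profiled with the 10x Chromium 3' kit v2. The authors kept cell barcodes with at least 10000 reads, aligned reads to GRCm38 with GSNAP, counted UMIs of uniquely mapped sense reads over exons per gene, left out cells under 300 UMIs and deposited these counts with the cluster names they gave after clustering in Seurat 2.2.0. The deposited labels of clusters were used as given. The labels put 1 tumor in each group.

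The 10 genes and all lists were chosen with earlier results of these data known. Entrez identifiers were matched to symbols for 31049 of 36530 features, and the constant genes of the T cell receptors in the marker lists were among those not matched. UMIs of a group of cells were summed and scaled to 1000000 UMIs (CPM), with exact 95% Poisson and Clopper-Pearson intervals, and ratios between groups of cells had exact conditional binomial intervals. A ratio against 0 UMIs was bounded by a floor of 3 UMIs over the group, and genes with at least 5 UMIs over both groups entered the background counts. The scripts were tested on simulated data. Named genes outside the 10 were the members of each list with most UMIs, cell type markers, and the genes most alike by ratio or correlation. The other genes that a count of 5 or fewer turned on were named after their values were seen. Correlations used log2 of CPM plus 10 over groups of at least 20 cells, and genes were ranked by them where they held at least 100 UMIs. No doublet caller was run. Alternatives were deposited totals, edgeR 4.0.16 TMM scaling, thinning to 1000 UMIs (seed 1), equal weight per cell or cluster, and leaving out cells or clusters. Cell names are running numbers, so barcodes shared between libraries could not be counted. Python 3.11.15, numpy 2.4.6, scipy 1.17.1 and R 4.3.3 were used. A part of the genotype shared by all tumors is not reported here.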

Additional observations from a re-analysis of the deposited data

Results flagged for a closer look

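Lag3 moved in opposite directions in different cells of the same pair of tumors. In the progressed against the regressed tumor its log2 ratio was 1.08 in NK/T cells, and it was -1.0 in other immune cells, -0.92 in stroma and -1.59 in tumor cells, with all 4 counting intervals without 0. The result drew attention because the direction differed between cell groups of 1 pair of libraries, and the difference between the groups was not tested, since each tumor is a single library. The values in tumor cells rest on 15 regressed and 7 progressed UMIs. The groups were not uniform. Within NK_T, Lag3 had 25 regressed and 0 progressed UMIs. Among other immune cells, regressed and progressed levels were 89.6 and 17.8 CPM in Monocytes2 and 12.2 and 3.36 in mast cells. They were 18.6 and 16.6 in macrophages and 13.4 and 16.1 in Monocytes1. The tumors were built from different stromal clusters. The median over all genes was -0.10 in NK/T cells, -0.24 in other immune cells and -0.26 in stroma.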

How the results depend on the processing

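Among ratios of receptors in NK/T cells, 228 of 242 alternative values stayed close to the reported one, 11 moved and 3 reversed, and for ligands in immune cells 48 of 60 stayed close. The Ctla4 ratio of regressed to untreated NK/T cells turned from 0.72 to -0.0814 after thinning to 1000 UMIs and to -1.21 without cells with macrophage or fibroblast UMIs, where 9 and 10 cells were left. The Lag3 ratio of progressed to regressed turned to at most -0.59 in NK_T alone, a bound from 3 UMIs, where the progressed tumor had 0 UMIs. Without neutrophils, the ratio of regressed to untreated immune cells was 0.56 for Cd274 and 0.49 for Pdcd1lg2, and that of progressed to untreated was -0.39 for Cd274, as it was (-0.39) with equal weight per immune cluster. TMM scaling, which shifts every ratio of regressed to untreated immune cells by -0.54, gave -0.55 for Cd274. Stromal Lag3 in regressed over untreated turned to -0.32 with shared clusters at equal weight, an alternative chosen after seeing the data. The number of receptors at least 2-fold apart in progressed over regressed NK/T cells went from 2 to 1 with equal weight per cell, with NK_T alone and with Cd3-positive dividing cells added, and to 4 at 1.5-fold. In progressed over untreated NK/T cells it went from 1 to 0 after thinning or with members of at least 10 UMIs, to 2 in NK_T alone or without cells with macrophage or fibroblast UMIs, to 4 with equal weight per cell and to 5 at 1.5-fold. Of 32 shares of cells, 19 moved with thinning, and 22 alternative values could not be formed, since too few UMIs were left. Apart from the constructions named, the cause of each change was not tested. No paired analysis was possible because each group is 1 tumor. For the same reason no replicate could be left out. Depth limits the receptors most in the 15 to 25 cells of the untreated and progressed clusters, where a single UMI is worth 8.26 to 26.0 CPM.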

Other observations

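Of 13 other costimulatory and inhibitory receptors, Tnfrsf9 (4-1BB) was at 665, 450 and 673 CPM in untreated, regressed and progressed NK/T cells, Tnfrsf18 at 257, 378 and 308 and Tnfrsf4 at 144, 315 and 236. Klrg1, an inhibitory receptor of differentiated T and NK cells, was at 144, 113 and 28.0. At least 2-fold apart were 2 of 13 with a ratio in regressed over untreated, 3 of 13 in progressed over regressed and 2 of 12 in progressed over untreated NK/T cells, against 27.2%, 26.2% and 27.7% of all genes. Of 13 genes of T cell activation and exhaustion, 6 of 13, 4 of 12 and 1 of 11 with a ratio were so far apart, against the same background. Il7r, the IL-7 receptor chain of memory T cells, was highest in the regressed tumor (176, 529 and 129 CPM), as was the chemokine receptor gene Cxcr6 (326, 588 and 241), while Nr4a1, an early response gene of T cell receptor signaling, was lowest there (326, 85.9 and 219).

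Of 15 partner ligands of these receptors, 4, 6 and 5 had at least 5 UMIs in untreated, regressed and progressed NK/T cells, against 13, 13 and 12 in other immune cells. Cd86, a ligand of CD28 and CTLA-4, was at 44.7, 50.1 and 69.2 CPM in immune cells other than NK/T cells and at most 1.71 in stroma, and Cd80 was at 22.3, 23.2 and 16.9, while NK/T cells held 0, 4 and 1 Cd86 and 0, 4 and 0 Cd80 UMIs. Nectin2, a ligand of TIGIT, was at 33.5, 17.0 and 29.1 in stroma and at 5.30, 5.57 and 6.00 in those immune cells, and Icosl, the ligand of ICOS, was at 21.6, 33.3 and 46.3 in stroma. Lgals9, a ligand of TIM-3, was at 112, 91.9 and 119 in those immune cells and at 84.0, 63.0 and 75.7 in stroma, and NK/T cells had 56.5, 62.8 and 89.8. Hmgb1, a ligand of TIM-3, was at 43.9, 121 and 44.9 in NK/T cells and Vsir, which encodes VISTA, at 43.9, 102 and 89.8. The interferon gamma gene Ifng itself had 6, 14 and 5 UMIs in NK/T cells.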
